A study of Mus musculus with 30 samples.

Results

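Interferon regulatory factors and antiviral genes were followed in RNA-seq of tibialis anterior, a fast muscle of the lower leg of the mouse. The 9 genes were Irf1, Irf5, Irf7, Irf9, Stat2, Isg15, Ifit3, Ifitm1 and Ifitm3, each chosen by name as a line of the deposited expression table, and all 9 were found among its 47643 gene symbols. The 30 libraries came from male C57BL/6J mice and formed 8 groups in 4 experiments. They were muscles after dexamethasone treatment (4) and their controls (4), muscles of mice with LLC cancer (4) and their controls (4), muscles of old mice at 24 months (3) and of young mice at 6 months (3), and muscles given Cyr61 siRNAs (4) or NT siRNAs (4). LLC is the usual abbreviation of Lewis lung carcinoma, a transplantable mouse tumour, and dexamethasone is a synthetic glucocorticoid; both, like old age, are used as models of muscle wasting. The labels give no dose, duration, tumour burden, age for the other experiments or route of siRNA delivery, and they do not spell out LLC or NT. They call the replicates biological without saying that each came from a separate animal, so the p-values measure the spread between these samples.

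Interferons are secreted by infected or activated cells and act through receptors that switch on kinases of the Jak family, among them Jak1, Jak2 and Tyk2. With type I interferons, Stat2 and Irf9 enter the complex ISGF3, which binds interferon-stimulated response elements (ISRE) in DNA, whereas interferon-gamma acts mainly through gamma-activated sites (GAS). Irf1 and Irf7 are transcription factors that are themselves induced by interferon and amplify the response, and Irf5 acts downstream of Toll-like receptors. Isg15 is a ubiquitin-like protein that is attached to other proteins, Ifit3 works with its relatives on viral RNA, and Ifitm1 and Ifitm3 are membrane proteins that hinder the entry of viruses. Glucocorticoids are known in other tissues to hold back many immune genes.

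Values are TPM, transcript counts scaled for gene length and for the library's total, so levels can be set side by side between genes. A library held between 27400087 and 54943607 reads, recovered from the TPM steps. Summed TPM of 10 muscle fibre markers (among them Acta1, Ckm and Myh4) lay between 58080 and 109800 in every library, so markers of the labelled tissue were high throughout. The targeted gene of the siRNA experiment, Cyr61, stood at 32.9, 52.8, 45.8 and 25.5 TPM after Cyr61 siRNAs, against 57.0, 64.6, 67.8 and 36.8 TPM after NT siRNAs. These groups overlapped, and the log2 difference of -0.53 did not pass the test (limma adjusted p = 0.999). Genes were compared by limma on log2(TPM + 1) and called at an adjusted p under 0.05 over all genes tested, and fold changes on this scale understate those of low genes.

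**Figure D1:**
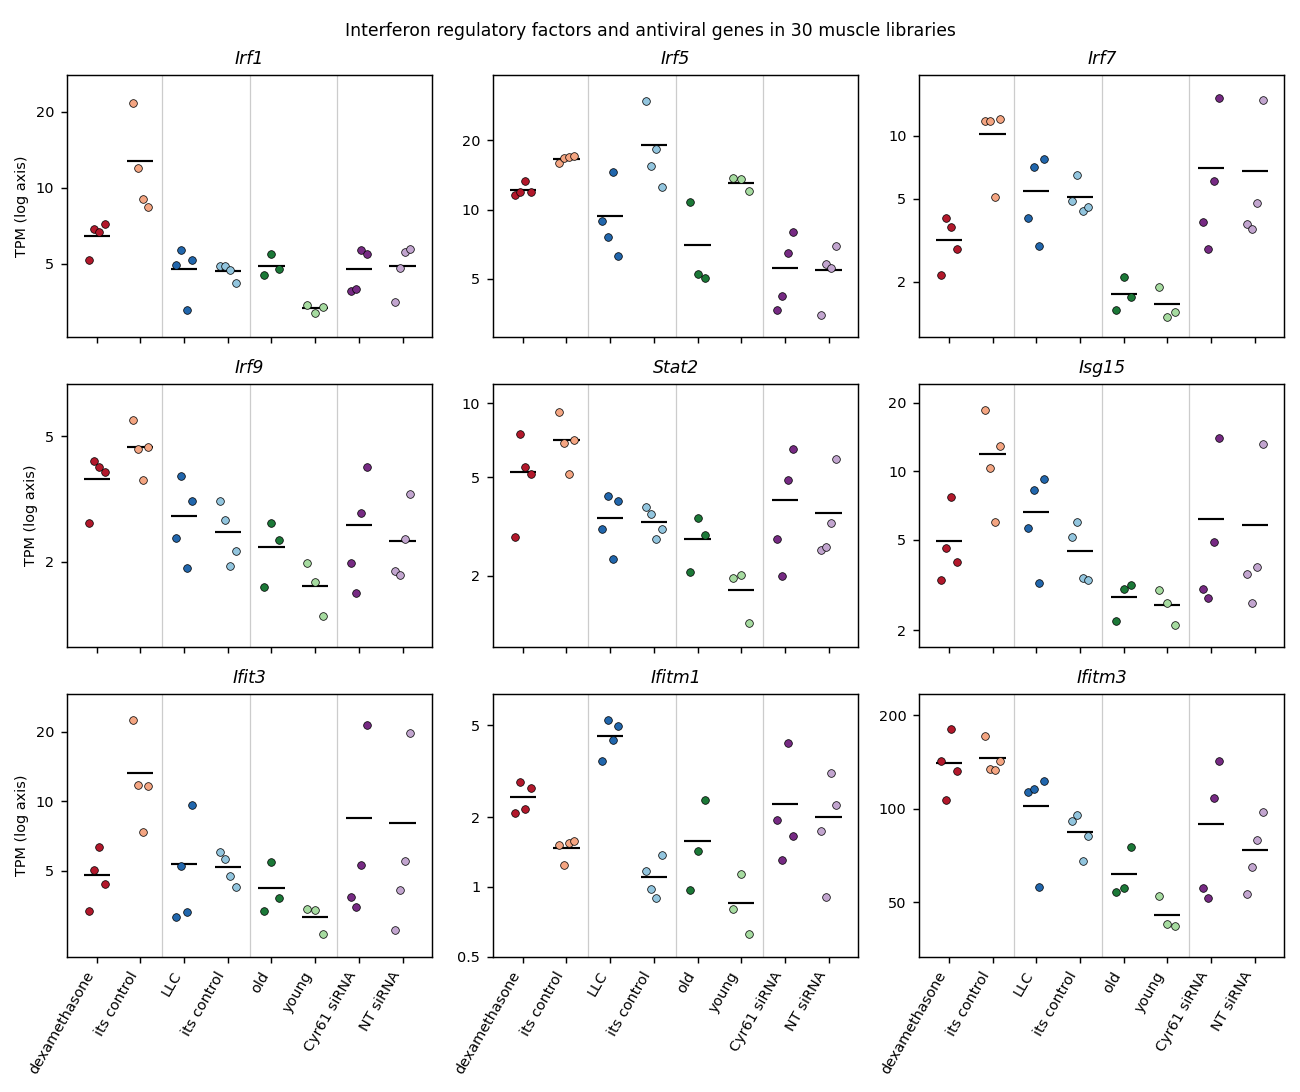
TPM of the 9 genes (log axis) in each of the 30 libraries; points are libraries, horizontal bars are group means, and grey lines part the 4 experiments. In Irf1, Irf5, Irf7 and Ifit3 all 4 dexamethasone libraries lie below all 4 of their controls, and in Ifitm1 all 4 LLC libraries lie above all 4 LLC controls.

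By level, Ifitm3 stood well above the other 8 genes. Its group means ran between 45.6 ± 5.91 TPM in young muscle (SD, n = 3) and 145 ± 18.2 TPM in the dexamethasone controls (SD, n = 4), while no other gene of the 9 had a group mean above the 19.0 ± 7.50 TPM of Irf5 in the LLC controls (SD, n = 4). Ifitm1, its neighbour on chromosome 7, was the lowest of the 9 in young muscle at 0.855 ± 0.258 TPM (SD, n = 3). The dexamethasone controls had the highest mean of the 8 groups for 7 genes (Irf1, Irf7, Irf9, Stat2, Isg15, Ifit3 and Ifitm3), and young muscle had the lowest for 8, all but Irf5. The 4 experiments differed in depth and in their controls, so levels across experiments are given as a description without a test.

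Most neighbours in these orders were not separate. For Ifit3 and Irf9 every pair of neighbouring groups overlapped. The order for Irf1 had a gap under its top group, the dexamethasone controls (8.36 to 21.6 TPM), and another above young muscle (3.20 to 3.42 TPM). For Irf7, dexamethasone muscle (2.15 to 4.02 TPM) was apart from the LLC controls above it (4.36 to 6.50 TPM) and from old muscle below it (1.47 to 2.11 TPM), and old and young muscle overlapped. Isg15 had 1 gap, between the LLC controls and old muscle. Stat2 and Ifitm3 had 1 gap each, between old and young muscle. The order for Irf5 was its own: LLC controls, dexamethasone controls, young, dexamethasone, LLC, old, Cyr61 siRNA and NT siRNA, with 1 gap between the dexamethasone controls and young muscle. Ifitm1 was highest in LLC muscle, apart from the next group, dexamethasone muscle.

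The genes lie on 7 chromosomes of the mm10 build by the GENCODE M21 annotation. Irf7 (141262706 to 141266481, minus strand), Ifitm1 (140967221 to 140969825, plus strand) and Ifitm3 (141009586 to 141010770, minus strand) share chromosome 7, while Isg15 is on chromosome 4 (156199424 to 156200818, minus strand) and Ifit3 on chromosome 19 (34583531 to 34588731, plus strand). Irf1 is on chromosome 11, Irf5 on 6, Irf9 on 14 and Stat2 on 10. Recovered reads ranged from 12 to 133 a library for Ifitm1, from 25 to 381 for Isg15 and from 498 to 3187 for Ifitm3. The annotated extents of 4 of the 9 overlap another gene. On the opposite strand, Irf1 overlaps Gm17334 over 907 bases, Irf5 overlaps Tnpo3 over 1045 and Irf7 overlaps Phrf1 over 45. On the same strand, Irf9 overlaps Rnf31 over 123 bases. Whether the counting used strand could not be learned from the labels, and Ifit3 shares sequence with Ifit3b and the Ifitm genes with each other, so these values carry that uncertainty.

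Promoter sequences of RefSeq (GRCm38.p6), 250 bases before to 50 bases after each start site, were found for all 9 genes in 11 windows and searched on both strands for the ISRE core (GAAA, any 2 bases, GAAA) and the GAS sequence (TTC, any 3 bases, GAA). The ISRE core was in a window of 4 genes (Stat2, Isg15, Ifit3 and Ifitm3), against 3.44% of 32851 mouse promoter windows of the same length and 3.99% of 27025 genes. The GAS sequence was in a window of Irf1 and of Ifitm3, against 8.30% of windows and 9.55% of genes, and in Ifitm3 it overlapped the ISRE match that begins at 20. The 4 windows below belong to genes called in the comparisons that follow, each read in the direction of its gene, in lower case with ISRE core matches in capitals. Isg15 (chr4:156200769-156201068, minus strand) held 3 overlapping matches, which begin at -78, -72 and -66 from the start site, and Ifit3 (chr19:34583279-34583578, plus strand) held 2 on the opposite strand, at -156 and -122. Irf7 (chr7:141266375-141266674, minus strand) and Ifitm1 (chr7:140967826-140968125, plus strand) held neither sequence in these windows.
Isg15: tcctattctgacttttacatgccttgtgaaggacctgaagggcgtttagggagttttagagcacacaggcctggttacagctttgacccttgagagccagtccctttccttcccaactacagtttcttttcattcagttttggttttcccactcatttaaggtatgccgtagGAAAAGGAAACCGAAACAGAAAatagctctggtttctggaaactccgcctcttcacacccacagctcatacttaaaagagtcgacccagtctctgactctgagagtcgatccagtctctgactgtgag
Ifit3: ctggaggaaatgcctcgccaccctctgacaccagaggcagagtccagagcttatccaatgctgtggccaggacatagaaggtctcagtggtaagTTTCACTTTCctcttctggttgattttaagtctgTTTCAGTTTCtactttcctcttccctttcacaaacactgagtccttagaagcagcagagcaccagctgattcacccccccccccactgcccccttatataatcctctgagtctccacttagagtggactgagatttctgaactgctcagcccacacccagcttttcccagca
Irf7: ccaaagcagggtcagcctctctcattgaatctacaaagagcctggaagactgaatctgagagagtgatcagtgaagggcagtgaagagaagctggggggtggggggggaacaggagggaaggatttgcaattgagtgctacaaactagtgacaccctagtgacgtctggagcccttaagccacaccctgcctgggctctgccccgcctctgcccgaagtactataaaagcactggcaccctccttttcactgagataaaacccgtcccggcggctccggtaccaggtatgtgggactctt
Ifitm1: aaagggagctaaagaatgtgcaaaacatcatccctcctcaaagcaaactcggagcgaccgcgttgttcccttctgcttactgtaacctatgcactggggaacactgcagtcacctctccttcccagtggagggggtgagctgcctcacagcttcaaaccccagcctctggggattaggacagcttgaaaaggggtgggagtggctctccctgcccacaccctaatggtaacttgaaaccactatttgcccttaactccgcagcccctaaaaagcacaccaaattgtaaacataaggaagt

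After dexamethasone 5 of the 9 genes were lower and 1 was higher than in the control muscles. The lower ones were the factors Irf1, Irf5 and Irf7 and the effectors Isg15 and Ifit3, with mean levels between 0.312 times (Irf7) and 0.732 times (Irf5) those of the controls. Ifitm1 was higher, at 1.67 times the control mean, and Irf9, Stat2 and Ifitm3 did not pass. Over 11944 genes, 1.51% passed on the lower side and 35.9% on the higher, and the median gene was 0.33 higher on the log2 scale. Changes below are relative to that median. The SE and limma adjusted p beside them belong to the log2 difference before the median was subtracted, tested against 0. The relative values were not themselves tested. In these bulk samples, fewer cells of a type and less RNA per cell cannot be told apart.

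Irf7 measured 2.15, 4.02, 3.64 and 2.88 TPM in dexamethasone muscle, against 11.7, 11.8, 5.11 and 12.0 TPM in its controls. The highest treated library was below the lowest control, which was control 3, and the other 3 controls were near 12 TPM. The log2 difference was -1.38 (SE 0.25, limma adjusted p = 0.00489), which is -1.70 relative to the median gene. Ifit3 measured 3.35, 5.02, 6.34 and 4.37 TPM after dexamethasone, against 22.4, 11.7, 7.35 and 11.6 TPM in controls, again without overlap (relative log2 -1.56, SE 0.28, limma adjusted p = 0.0106). Isg15 measured 3.34, 4.62, 7.69 and 4.00 TPM after dexamethasone, against 18.6, 10.4, 5.98 and 12.9 TPM in controls. Here treated library 3 lay above control 3, so the groups overlapped, and the relative log2 change was -1.42 (SE 0.30, limma adjusted p = 0.0222).

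Among the other factors, Irf1 stood at 5.17, 6.84, 6.68 and 7.17 TPM in dexamethasone muscle, against 21.6, 12.0, 9.01 and 8.36 TPM in controls. The treated libraries were close together and all lower, and control 1 was far above the other controls; the relative log2 change was -1.12 (SE 0.25, limma adjusted p = 0.0318). Irf5 had the smallest SE of the 9, with 11.6, 11.9, 13.2 and 12.0 TPM after dexamethasone, against 15.9, 16.8, 16.9 and 17.1 TPM in controls, a relative log2 change of -0.75 (SE 0.09, limma adjusted p = 0.00982). Ifitm1 was at 2.09, 2.85, 2.17 and 2.69 TPM after dexamethasone, against 1.52, 1.25, 1.54 and 1.57 TPM in controls. All 4 treated libraries were higher, and its log2 change of 0.48 (SE 0.11, limma adjusted p = 0.0129) was 0.15 relative to the median gene. After median-of-ratios scaling, which takes the shift of the median gene out of the TPM, Ifitm1 no longer passed (log2 0.24, limma adjusted p = 0.107).

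Irf9 and Stat2 of the ISGF3 complex were lower than the median gene without passing on TPM. Irf9 had 2.65, 4.18, 4.00 and 3.84 TPM after dexamethasone, against 5.62, 4.57, 3.63 and 4.62 TPM in controls, and Stat2 had 2.86, 7.51, 5.53 and 5.15 TPM after dexamethasone, against 9.19, 6.90, 5.17 and 7.13 TPM in controls. Both overlapped between the groups. Their relative log2 changes were -0.60 (limma adjusted p = 0.162) and -0.73 (limma adjusted p = 0.167), and both passed after scaling (limma adjusted p = 0.0235 for Irf9 and 0.0432 for Stat2). Ifitm3 had 143, 107, 179.9 and 132 TPM after dexamethasone, against 172, 134, 133 and 143 TPM in controls, with full overlap and a relative log2 change of -0.40 (limma adjusted p = 0.715). After scaling, 7 of the 9 genes were lower and 0 higher, against 4.71% and 4.44% of all genes.

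Groups that did not overlap were found for Irf1, Irf5, Irf7 and Ifit3 on the lower side and for Ifitm1 on the higher side, against 1.66% and 34.3% of all genes tested. Irf5, Irf7 and Ifit3 were called whichever of the 8 libraries was left out. Isg15 was not called without control 1 (limma adjusted p = 0.0611), control 2 (0.0537), control 4 (0.0557) or treated 4 (0.0578). Irf1 was not called without control 1 (limma adjusted p = 0.0537), control 2 (0.0775), treated 3 (0.0649) or treated 4 (0.0579), and Ifitm1 not without control 2 (0.0521). Irf1 was also not called when no gene was filtered out (limma adjusted p = 0.0651), nor Ifitm1 by voom on the recovered reads (adjusted p = 0.0503).

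**Figure D2:**
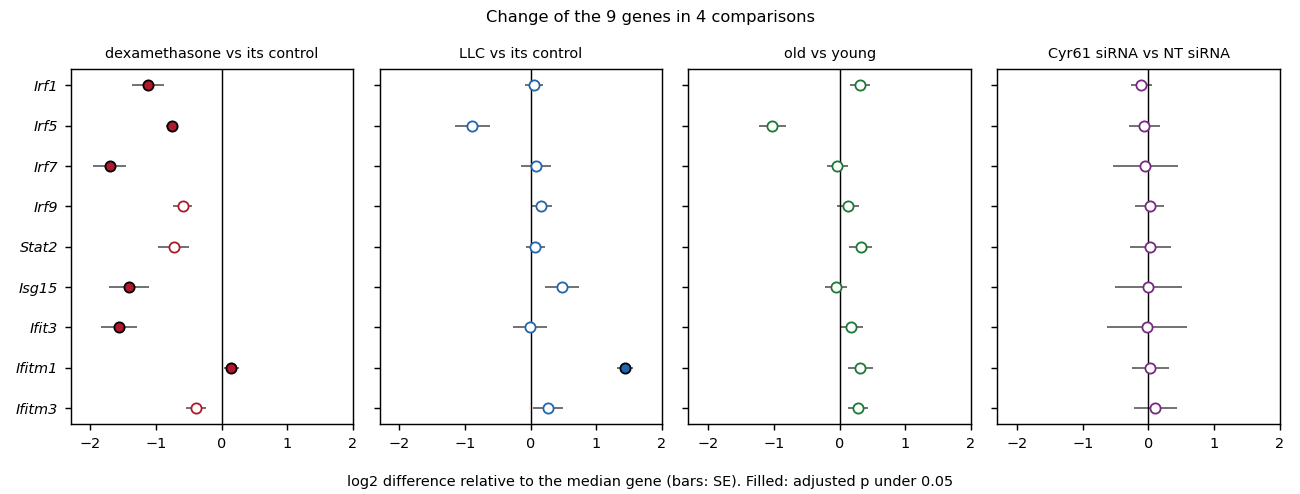
Log2 difference of each of the 9 genes relative to the median gene in the 4 comparisons, with bars of 1 SE. Filled points passed at an adjusted p under 0.05 for the log2 difference before the median was subtracted. In the dexamethasone panel 5 genes are filled below 0 and Ifitm1 above it, in the LLC panel Ifitm1 alone is filled at 1.43, and no point is filled in the old or Cyr61 siRNA panels.

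The rest of the pathway was described from lists of genes by role, with the background of 35.9% higher and 1.51% lower in mind. Of 8 receptor subunits and kinases, 3 were called higher and 0 lower after dexamethasone, a share close to that of all genes, and after scaling Il10rb alone was called. The 3 were Il10rb, a subunit of several cytokine receptors (relative log2 0.59, limma adjusted p = 0.00235), Ifngr1 of the interferon-gamma receptor (relative 0.10, adjusted p = 0.0278) and Ifnar1 of the type I interferon receptor (relative 0.20, adjusted p = 0.0346). Ifnar2, Ifngr2, Jak1 and Tyk2 had relative log2 values between -0.14 and 0.08 and did not pass. Of 3 other Irf genes tested, Irf3, the latent factor that starts the interferon response, was called higher (relative 0.22, limma adjusted p = 0.00744), and Irf8, a factor of myeloid and dendritic cells, was not called at a relative -0.73 (limma adjusted p = 0.0889). After scaling these calls changed places, Irf3 no longer passing (limma adjusted p = 0.104) and Irf8 called lower (0.0312). The list medians were 0.08 for receptors and kinases and 0.00 for the other Irf genes, against -0.75 for the 9 genes.

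Among 20 other antiviral effectors tested, 8 fell and 3 rose, with a median of -0.71 relative to all genes. The 4 with the smallest adjusted p were Ifit3b, a close relative of Ifit3 (relative log2 -1.26, limma adjusted p = 0.0110), Rsad2 or viperin (-1.16, 0.0163), the tethering protein Bst2 (-0.88, 0.0199) and the oligoadenylate synthetase-like Oasl2 (-1.20, 0.0199). Of these, Bst2 was at 22.3, 23.7, 32.1 and 23.3 TPM after dexamethasone, against 42.5, 36.4, 29.7 and 41.9 TPM in controls. After scaling 11 of the 20 were lower and 0 higher. Of 21 other interferon-stimulated genes tested, Rtp4, a chaperone of receptors, fell (relative -1.09, limma adjusted p = 0.0120) and Daxx, a histone chaperone, was called higher (relative 0.07, adjusted p = 0.0321). Their median was -0.55, and 8 were lower and 0 higher after scaling. Of 12 sensors and adaptors, Zbp1, a sensor of nucleic acids, fell (relative -1.52, limma adjusted p = 0.00636), and Tlr7, a sensor of RNA (relative 0.68, adjusted p = 0.00502), and the kinase Tbk1 (relative 0.07, adjusted p = 0.0373) were called higher. After scaling 4 of the 12 were lower, Zbp1, Ddx58, Mavs and Tlr3, and Tlr7 alone was higher. Of 6 feedback inhibitors, Socs1, which blocks Jak kinases (relative -1.44, limma adjusted p = 0.00767), and Usp18, which removes Isg15 from proteins (relative -0.92, adjusted p = 0.0215), fell, while 3 phosphatases, Ptpn6, Ptpn2 and Ptpn1, were called higher and 0 were after scaling.

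**Figure D3:**
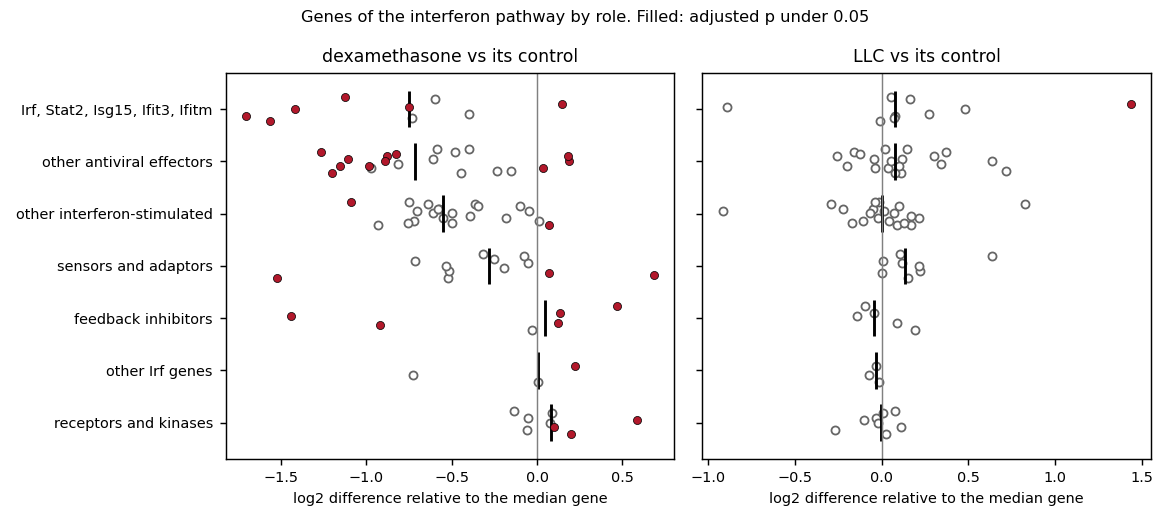
Log2 difference relative to the median gene for the genes tested in each list (points), with the list's median as a bar. Filled points passed an adjusted p of 0.05 for the log2 difference before the median was subtracted. After dexamethasone the medians of the 9 genes (-0.75), other antiviral effectors (-0.71) and other interferon-stimulated genes (-0.55) lie below 0 while those of receptors and other Irf genes lie near 0; in the LLC panel Ifitm1 is the filled point.

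Interferon transcripts themselves were scarce. Of 10 interferon genes in the table, 8 were listed at 0 in all 30 libraries. Ifng, which encodes interferon-gamma, was above 0 in 13 libraries, with its highest value, 2.11 TPM, in dexamethasone control 1. The other dexamethasone controls had 0.198, 0.254 and 0.0679 TPM of Ifng, and the dexamethasone libraries had 0, 0, 0.0317 and 0 TPM; the gene was too low to be tested. Control 1 was also the highest of the 8 libraries for Irf1, Irf9, Stat2, Isg15 and Ifit3. Without it Irf5, Irf7 and Ifit3 were still called lower, while Irf1 (limma adjusted p = 0.0537) and Isg15 (0.0611) were not called. The part of Ifng in these values was not tested.

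Several other measures moved with dexamethasone beside these genes. Of 11 macrophage markers 10 rose (5 after scaling), and their summed level was 1129 to 2727 TPM after dexamethasone, against 327.7 to 560.1 TPM in controls. Summed levels of 12 lymphocyte markers were 12.6 to 23.8 TPM after dexamethasone, against 40.5 to 74.5 TPM in controls, and of 7 dendritic cell markers 24.5 to 39.5 TPM after dexamethasone, against 88.5 to 131 TPM in controls; the 2 lymphocyte markers tested, Igkc and Ighm, fell, and of 2 dendritic cell markers tested H2-Ab1 fell (relative log2 -2.43) and Itgax rose. Of 4 neutrophil markers tested, S100a8 and S100a9 rose (relative log2 2.86 and 1.16) and Retnlg fell (relative log2 -3.42), also after scaling. The 6 neutrophil markers summed to 12.9 to 87.7 TPM after dexamethasone, against 8.16 to 36.8 TPM in controls, and Ly6g was at 0 in all 8 libraries. Of 7 endothelial markers 1 fell on TPM (Cldn5, relative log2 -0.67) and 5 after scaling, with a relative median of -0.41, and their sum was 137 to 196 TPM after dexamethasone, against 178 to 199.6 TPM in controls. Mitochondrially encoded transcripts took 34.0 to 41.5% of TPM after dexamethasone, against 46.3 to 50.7% in controls. The part of these in the fall of the interferon genes was not tested.

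In LLC muscle Ifitm1 was the gene of the 9 that changed. It measured 3.49, 5.25, 4.32 and 4.98 TPM in LLC muscle, against 1.17, 0.977, 0.898 and 1.37 TPM in controls. Each LLC library was above each control, the mean was 4.08 times as high (4.51 ± 0.784 and 1.10 ± 0.213 TPM, SD, n = 4 each), and the log2 difference was 1.38 (SE 0.13, limma adjusted p = 0.00122). Over 10830 genes, 0.295% passed on the higher side and 0.886% on the lower, and the median gene moved by -0.05. Ifitm1 was called whichever of the 8 libraries was left out. Its neighbour Ifitm2, which shares sequence with it and with Ifitm3, was at 115 ± 31.3 TPM in LLC muscle and 74.5 ± 9.23 TPM in controls (SD, n = 4 each) and passed only after scaling (limma adjusted p = 0.219 on TPM and 0.0422 after scaling).

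The other 8 genes did not pass in LLC muscle. Irf5 was at 8.93, 7.63, 14.5 and 6.30 TPM in LLC muscle, against 29.7, 15.4, 18.4 and 12.5 TPM in controls. LLC library 3 lay above control 4, and the log2 difference was -0.94 (SE 0.26, limma adjusted p = 0.123). Irf5 was called without library 3 (log2 -1.16, limma adjusted p = 0.0341) and not with any other single library left out. It was also called with a replicate block (limma adjusted p = 0.00711), though whether the replicate numbers pair the samples is unknown. Library 3 also stood apart in the share of mitochondrially encoded transcripts, 60.4% against at most 48.7% in the controls, and in having the lowest Ifitm3 of its experiment, 56.0 TPM. Isg15 was at 5.62, 8.30, 3.23 and 9.21 TPM in LLC muscle, against 5.13, 5.99, 3.38 and 3.33 TPM in controls, with overlap on both sides (log2 0.43, SE 0.26, limma adjusted p = 0.539). Irf1, Irf7, Irf9, Stat2, Ifit3 and Ifitm3 had log2 differences between -0.06 and 0.22 with adjusted p of 0.776 to 0.995 by limma. Irf7 averaged 5.46 ± 2.31 TPM in LLC muscle and 5.07 ± 0.975 TPM in controls, and Ifit3 averaged 5.33 ± 3.02 TPM in LLC muscle and 5.16 ± 0.806 TPM in controls (SD, n = 4 each). The groups of Ifitm1 alone did not overlap, on the higher side, against 1.5% of genes on that side and 6.13% on the lower one.

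No receptor, kinase, other Irf gene, feedback inhibitor, other effector or other interferon-stimulated gene of the lists passed in LLC muscle on TPM, nor did a sensor. Ifnar1, Ifnar2, Ifngr1, Ifngr2, Jak1, Tyk2, Irf3 and Irf8 had log2 differences between -0.32 and 0.06. After scaling, Tmem173, the adaptor STING, was called beside Ifitm2 (log2 0.62, limma adjusted p = 0.0233). Summed levels of 6 neutrophil markers were 84.9, 98.7, 35.02 and 68.7 TPM in LLC muscle, against 5.35, 92.3, 1.22 and 1.44 TPM in controls; of the 4 tested Csf3r was called higher, and Mpo was at 0 in all 4 LLC libraries. In control 2 the sum came mainly from S100a8 (29.3 TPM) and S100a9 (57.7 TPM). Its Csf3r was 0.735 TPM, against 1.10 to 3.13 TPM in LLC muscle, and its Mpo was 0.874 TPM. Ifitm1 in control 2 was 0.977 TPM, the third highest of the 4 controls. Lymphocyte marker sums were 16.4 to 37.5 TPM in LLC muscle, against 44.2 to 65.3 TPM in controls. The part of these cells in the rise of Ifitm1 was not tested.

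With age, 0 of the 9 genes were called, beside 0.152% of 10511 genes called higher and 0.019% lower; 1174 genes had an unadjusted p under 0.05, and 0 genes were called after scaling. The median gene was 0.14 higher in old muscle, and changes are relative to it. The SE and limma adjusted p beside them belong to the log2 difference before that median was subtracted. Irf5 was at 10.8, 5.25 and 5.02 TPM in old muscle, against 13.7, 13.5 and 12.0 TPM in young muscle. The old libraries were all lower, old 1 lying nearer to the young ones than the other two, with a relative log2 change of -1.02 (SE 0.21, limma adjusted p = 0.119). Irf5 was called without old 1 (limma adjusted p = 0.000750), old 2 (0.0334), young 1 (0.0150) or young 2 (0.0140), and not without old 3 or young 3. It was also called with a replicate block (limma adjusted p = 0.00851), though whether the replicate numbers pair the samples is unknown.

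Irf1, Stat2 and Ifitm3 were higher in every old library than in every young one. Irf1 was at 4.52, 5.45 and 4.75 TPM in old muscle, against 3.42, 3.20 and 3.37 TPM in young muscle (relative log2 0.31, limma adjusted p = 0.299). Stat2 was at 2.07, 3.41 and 2.93 TPM in old muscle, against 1.96, 2.01 and 1.28 TPM in young muscle (relative 0.33, adjusted p = 0.375). Ifitm3 was at 54.0, 55.8 and 75.4 TPM in old muscle, against 52.4, 42.5 and 41.9 TPM in young muscle (relative 0.28, adjusted p = 0.324). Groups failed to overlap on the higher side in 15.5% of all genes tested and on the lower side in 0.761%. Irf7, Irf9, Isg15, Ifit3 and Ifitm1 overlapped between the ages, with relative log2 changes between -0.06 and 0.32. No gene of the receptor, sensor, feedback, effector or other interferon-stimulated lists was called, and Ifnar2, at 2.91 ± 0.489 TPM in old muscle and 1.74 ± 0.199 TPM in young muscle (SD, n = 3 each), had the largest relative change among the receptor subunits and kinases named here (0.37, limma adjusted p = 0.236). Summed lymphocyte markers were 56.0 to 98.5 TPM in old muscle, against 24.4 to 31.0 TPM in young muscle, and their part in these values was not tested.

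After Cyr61 siRNAs 0 of the 9 genes were called, in a comparison where of 11006 genes 0% rose and 0% fell by limma on TPM and by voom on the recovered reads, and 109 had an unadjusted p under 0.05. All 9 had a limma adjusted p of 0.999 and log2 differences between -0.04 and 0.18, and all overlapped between the groups, where 0.954% of genes did not overlap on the higher side and 0.0363% on the lower side. The SEs were wide, 0.50 for Irf7, 0.51 for Isg15 and 0.61 for Ifit3, and 1 library in each group stood far above the others.

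Replicate 4 was the highest library of both siRNA groups for 7 of the 9 genes, all but Irf1 and Ifitm1. Ifit3 was at 3.82, 3.46, 5.28 and 21.4 TPM after Cyr61 siRNAs, against 2.77, 4.12, 5.50 and 19.7 TPM after NT siRNAs. Isg15 was at 3.04, 2.78, 4.87 and 14.0 TPM after Cyr61 siRNAs, against 3.53, 2.63, 3.79 and 13.2 TPM after NT siRNAs, and Irf7 at 3.86, 2.88, 6.07 and 15.1 TPM after Cyr61 siRNAs, against 3.77, 3.59, 4.75 and 14.9 TPM after NT siRNAs. In each, library 4 was several times the median of the other 3 of its group. After Cyr61 siRNAs the ratio was 5.60 for Ifit3, 4.62 for Isg15, 3.90 for Irf7, 2.32 for Stat2 and 2.02 for Irf9. After NT siRNAs it was 4.79 for Ifit3, 3.74 for Isg15, 3.95 for Irf7, 2.28 for Stat2 and 1.76 for Irf9. Bst2 was likewise high in both, with 48.5 TPM in Cyr61 siRNA library 4, where the others had at most 21.3 TPM, and 43.0 TPM in NT siRNA library 4, where the others had at most 17.3 TPM. Without replicate 4 of either group 0 of the 9 genes and 0 genes in all were called, an alternative chosen after seeing these values.

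**Figure D4:**
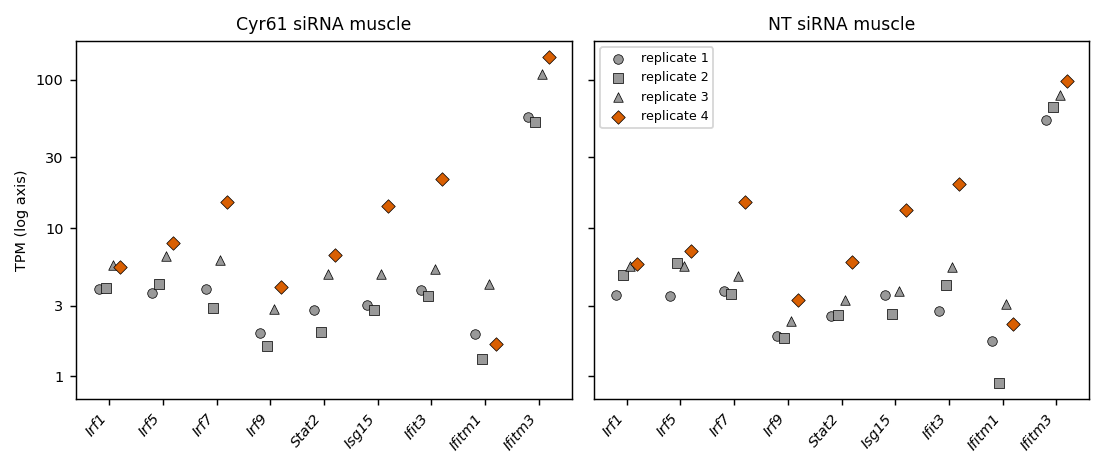
TPM of the 9 genes (log axis) in the 4 Cyr61 siRNA libraries (left) and the 4 NT siRNA libraries (right), with replicate 4 as orange diamonds. In both panels replicate 4 stands above the rest in Irf7, Isg15 and Ifit3, near 15, 14 and 20 TPM, and within the others for Ifitm1.

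Whether replicates of the same number share a day, cage or injection is not given. Their marker levels were not alike: Cyr61 siRNA library 4 had 395.6 TPM of macrophage markers and 137 TPM of lymphocyte markers, while NT siRNA library 4 had 103 TPM of macrophage and 2955 TPM of lymphocyte markers. Most of the lymphocyte sum in NT siRNA library 4 was the antibody chains Igkc (1989 TPM) and Ighm (954 TPM). Cyr61 siRNA library 3 had 5420 TPM of lymphocyte markers, also mostly antibody chains, with 5.28 TPM of Ifit3 and 4.87 TPM of Isg15. The part of these cells in the values of the 9 genes was not tested. The highest Ifng of the 8 siRNA libraries was 0.216 TPM, and no interferon-alpha or interferon-beta gene was above 0.

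Whether responses differed between stimuli was tested as an interaction in 1 fit of 22 libraries with 12392 genes. The dexamethasone response was below the LLC response for 5 of the 9 genes, against 1.09% of all genes called lower and 26.5% called higher. The log2 differences of the responses were -1.52 for Isg15 (SE 0.40, limma adjusted p = 0.0123), -1.40 for Irf7 (SE 0.34, adjusted p = 0.00794), -1.17 for Ifit3 (SE 0.38, adjusted p = 0.0311), -0.91 for Ifitm1 (SE 0.20, adjusted p = 0.00516) and -0.80 for Irf1 (SE 0.27, adjusted p = 0.0363). The median gene differed by 0.37 in the other direction. After scaling 7 of the 9 were lower, Irf9 and Stat2 beside these, against 2.86% of genes lower and 3.7% higher. Irf7, Isg15 and Ifitm1 stayed called whichever library was left out, while Irf1 was not called without dexamethasone control 1 or 2, dexamethasone 3, LLC control 1, 2 or 4, or LLC 1 or 2 (adjusted p of 0.0520 to 0.0665), nor Ifit3 without dexamethasone control 1 or 2, dexamethasone 4 or LLC control 4 (0.0506 to 0.0706). Against the old age response, the dexamethasone response was lower for Irf1 (log2 -1.24, SE 0.29, limma adjusted p = 0.0249) and Irf7 (-1.48, SE 0.37, adjusted p = 0.0329), where 0.759% of genes were called lower and 1.3% higher. After scaling 5 were lower, Irf9, Stat2 and Ifit3 with Irf1 and Irf7, against 2.11% lower and 0.807% higher. Neither Irf1 nor Irf7 was steady on TPM: Irf1 was not called without old 2, dexamethasone control 2 or any 1 of the 3 young libraries (adjusted p of 0.0506 to 0.0845), nor Irf7 without any 1 of the old or young libraries, dexamethasone control 1, 2 or 4, or dexamethasone 1 or 4 (0.05002 to 0.105). The LLC and old age responses differed in 0 of the 9 genes by limma on TPM and by voom, with 6 genes called in all, 0.00807% of genes higher and 0.0403% lower, and 1462 at an unadjusted p under 0.05; Ifitm1 was higher after scaling (log2 0.93 on TPM, limma adjusted p = 0.110, and 0.00811 after scaling), against 0.0888% of genes higher and 0.137% lower.

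The 9 genes did not vary as 1 block from library to library. Deviations from the group mean (log2(TPM + 1) after scaling within each experiment) were correlated over the 30 libraries, which share depth and cell makeup within an experiment, and r is given as a description. Irf7, Irf9, Stat2, Isg15 and Ifit3 formed 10 pairs with Pearson r of 0.871 to 0.943, and 0.752 to 0.892 without replicate 4 of either siRNA group. Irf1 had r of 0.530 to 0.646 with these and Ifitm3, and Ifitm3 had 0.548 to 0.803 with the others except Irf5 and Ifitm1. Irf5 and Ifitm1 stood aside: the 8 pairs with Irf5 had r of -0.04 to 0.32 and the 8 with Ifitm1 -0.04 to 0.33.

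**Figure D5:**
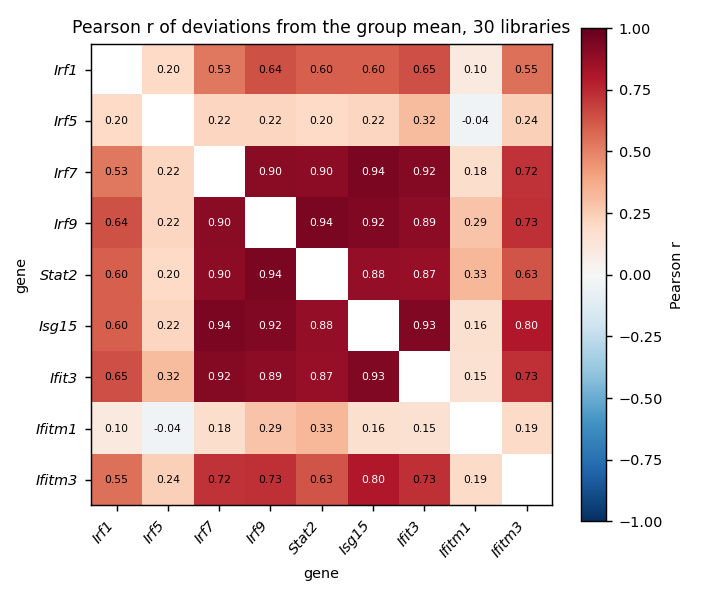
Pearson r between the 9 genes of deviations from the group mean over 30 libraries, by colour and in figures. Irf7, Irf9, Stat2, Isg15 and Ifit3 form a dark square at 0.87 or more, while the rows of Irf5 and Ifitm1 are pale, at 0.33 or less.

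Among 6703 other genes averaging at least 5 TPM, those that varied most like each of the 9 were as follows. For Irf1 they were the immunity-related GTPase Irgm1 (r = 0.916) and the guanylate-binding protein Gbp2 (0.876). For Irf7, Isg15 and Ifit3 the first was Bst2 (0.914, 0.899 and 0.925), followed by the MHC class I gene H2-T23 for Irf7 (0.836) and Isg15 (0.854). For Irf9 they were Tapbp, which loads peptides on MHC class I (0.839), and Ly6a (0.839), for Stat2 Gbp9 (0.867), and for Ifitm3 H2-T23 (0.881) and H2-D1 (0.875). For Irf5 they were Gnb5 (0.765) and Rassf8 (0.764), and for Ifitm1 the antibody gene Igkv6-20 (0.725) and Klf6 (0.718). By ranks the 2 values for Ifitm1 were lower, with a Spearman correlation of 0.451 for Igkv6-20 and 0.582 for Klf6. Each Pearson r is over 30 libraries, replicate 4 of the siRNA groups included, and among the highest of 6703, so it is high by selection.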

How the data were processed

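RNA of 30 tibialis anterior muscles was extracted with Trizol and made into stranded mRNA libraries (TruSeq) for a NovaSeq, per the labels' protocols. The authors deposited 1 table of TPM values per gene symbol, on the mm10 build per the submitters' processing notes; neither the aligner nor the counter and its strand setting is given in the sources used here. Whole reads were recovered from the TPM steps for 23192 of 23193 symbols above 0 (tolerance 0.05 read), giving 27400087 to 54943607 reads a library; 7386 of these symbols, Irf7 and Stat2 among them, needed a length other than the annotated one, so their reads may be low by a whole factor. Replicate pairs differed beyond sampling noise (chi-square per gene 12.6 to 343), so no library was counted as a repeat.

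Values were compared as log2(TPM + 1) with limma 3.58.1 in R 4.3.3 (trend, Benjamini-Hochberg adjustment over all genes tested), within each experiment, on genes of at least 1 TPM in a number of libraries no lower than the size of the smaller group. Alternatives were a pseudocount of 0.1, a minimum of 5 TPM or none, scaling by median of ratios, a replicate block, voom on recovered reads and each library left out. Same-numbered libraries correlated in their deviations at 0.0153 to 0.498, so every such pair was positive. The value was above 0.1 in 3 of 4 dexamethasone, 2 of 4 LLC, 1 of 3 age and 3 of 4 siRNA pairs. Differently numbered libraries correlated at -0.567 to 0.574, both ends being in the dexamethasone experiment. No experiment had every same-numbered pair above 0.1, and the labels do not say what a number marks. The main tests did not use the numbers as pairs, and whether they pair the samples is unknown. The 9 genes, the lists and the tests were chosen with earlier results of these data known. Named beside the 9 genes were the main receptor subunits, Jak1, Tyk2, Irf3 and Irf8, up to 4 genes a list with the smallest adjusted p under 0.05, and the 2 genes most alike in variation; 1 gene that this rule names is not reported here; Tmem173, Ddx58, Mavs, Tlr3, Ifitm2 in LLC muscle and marker genes were named after their values were seen. The scripts were tested on simulated data.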

Additional observations from a re-analysis of the deposited data

Results flagged for a closer look

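Of 54 groups of 4 libraries, 6 held a library far from the other 3 (gap over range above Dixon's 95% critical value; chance gives about 1 in 20). They were Irf7 in dexamethasone control 3 (5.11 TPM), Irf7 in NT siRNA 4 (14.9 TPM), Isg15 in NT siRNA 4 (13.2 TPM), Ifit3 in Cyr61 siRNA 4 (21.4 TPM), Ifit3 in NT siRNA 4 (19.7 TPM) and Ifitm3 in LLC 3 (56.0 TPM). So 4 of the 6 lay in replicate 4 of the siRNA groups.

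Responses that differed between stimuli by the interaction test were those of Irf1 (log2 -0.80), Irf7 (-1.40), Isg15 (-1.52), Ifit3 (-1.17) and Ifitm1 (-0.91) between dexamethasone and LLC, and of Irf1 (-1.24) and Irf7 (-1.48) between dexamethasone and old age. For Ifitm1 the difference came with a rise in both, 0.48 on the log2 scale after dexamethasone (not called after scaling, at 0.24) and 1.38 in LLC muscle.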

How the results depend on the processing

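After median-of-ratios scaling 1093 genes were called for dexamethasone, 351 for LLC, 0 for age, 812 for the dexamethasone and LLC difference and 28 for the LLC and age difference (1 of the 9 genes), with 5 of the 9 for the dexamethasone and age difference. Called genes were higher in 96.0% of cases for dexamethasone (48.5% scaled) and 25.0% for LLC (51.6% scaled). By voom the counts were 1877, 262 and 2 genes for dexamethasone, LLC and age, and 964, 92 (0 of the 9) and 15 for the 3 differences in the same order. With no filter they were 8 for LLC and 0 for age, 3 of the 9 for dexamethasone against LLC, 469 (1 of the 9) for dexamethasone against age and 14 for LLC against age. With 5 TPM they were 81 for LLC (0 of the 9, Ifitm1 being removed), 82 (1) and 2 for the differences from age, and with a pseudocount of 0.1 they were 115 (1) and 14. The replicate block, where it is unknown whether numbers pair the samples, gave 502 genes for LLC (2 of the 9, with Irf5 at adjusted p = 0.00711), 152 for age (1, Irf5 at 0.00851), 408 and 30 for the differences from age, and Irf1 was lost from the dexamethasone and LLC difference (0.0516). Small differences changed sign: Isg15 with age (-0.035 scaled) and, with Cyr61 siRNAs, Irf5 (-0.071 scaled, -0.039 by voom, -0.046 without replicate 4 of both groups), Irf7 (-0.058 scaled, -0.019 by voom), Isg15 (-0.015 scaled) and Ifit3 (-0.027 scaled). Leaving out 1 library gave 1918 to 8715 genes for dexamethasone (3 to 6 of the 9), 19 to 361 for LLC (1 to 2), 0 to 274 for age (0 to 1), 1700 to 6808 (3 to 5), 139 to 392 (0 to 3) and 4 to 42 (0 to 1) for the differences; the highest for dexamethasone was without dexamethasone 1. Log2 ranges that crossed 0 were -0.19 to 0.057 for Ifitm3 with dexamethasone; -0.073 to 0.14 (Irf1), -0.14 to 0.24 (Irf7), -0.0046 to 0.23 (Irf9), -0.068 to 0.15 (Stat2) and -0.35 to 0.10 (Ifit3) with LLC; -0.019 to 0.20 for Isg15 with age; and with Cyr61 siRNAs -0.16 to 0.037 (Irf1), -0.16 to 0.16 (Irf5), -0.39 to 0.44 (Irf7), -0.083 to 0.23 (Irf9), -0.12 to 0.33 (Stat2), -0.37 to 0.50 (Isg15), -0.48 to 0.57 (Ifit3), -0.14 to 0.27 (Ifitm1) and -0.086 to 0.39 (Ifitm3). Beyond the scaling itself, the cause was not tested. Depth limits Ifitm1 most, at 12 to 133 reads a library.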
